A study of Mus musculus with 24 samples.

Results

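The genes described here were read at a very low level in ER-Hoxb8 progenitors and at a higher one with the HDAC3 inhibitor BRD3308 in cells of every construct. They were chosen by their normalised read count (CPM, the count of a gene divided by the total of its library and scaled to a library of 1000000 counts). A protein-coding gene was taken when its mean over the 4 libraries of a group was under 1 CPM in all 3 DMSO groups and at least 2 CPM in all 3 BRD3308 groups. Of 21967 protein-coding genes among the 53801 genes counted, 11656 were under 1 CPM in all DMSO groups, and 44 of these (0.377%) met both limits. All 44 passed the filter on low counts of the tests given below, for which their BRD3308 libraries alone sufficed, whereas on the DMSO libraries alone 27 of the 44 would have passed.

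ER-Hoxb8 cells are granulocyte-monocyte progenitors of C57BL/6 mice whose differentiation is held back by a Hoxb8 protein that depends on estrogen. Lentiviral transduction gave stable lines that carried P199L-ERG (human ERG with a leucine in place of a proline) or WT-ERG, both driven by the human PGK promoter, or the empty vector, called BB. All cells were first washed free of beta-estradiol and then received BRD3308 or its solvent DMSO, which made 6 groups of 4 libraries, with 5 µM of inhibitor and 36 h in the deposited description (other passages on the study give another time and dose). The libraries of a group are described as independent experiments, but separate transductions are not stated, so p-values measure the spread between these libraries and a difference between constructs can include a difference between derived lines. Libraries held 12510036 to 16280939 counts. Markers of the labelled cell type were abundant in every library, with 12 of 12 measured and a summed level of 24000 to 29300 CPM with BRD3308 and 27100 to 31700 CPM with DMSO. By gene length, the DMSO libraries of the ERG constructs spread most: across 9537 genes the deviation from the group mean correlated with log2 exon length at r = -0.444 in replicate 4 of P199L-ERG and -0.491 in replicate 4 of WT-ERG, at up to 0.437 in the other libraries of these groups, and at -0.219 to 0.255 in all other groups. Without both replicates 4, 45 genes met the limits, and the counts under BRD3308 were 3 higher and 10 lower for P199L-ERG against BB, 6 higher and 11 lower for WT-ERG against BB, and 0 higher and 2 lower for P199L-ERG against WT-ERG, beside 2 and 10, 6 and 9, and 0 and 0 with all libraries.

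HDAC3 is a histone deacetylase that works within the NCoR and SMRT co-repressor complexes, which transcription factors bring to DNA. Loss of acetyl groups from histones goes with low transcription, and inhibitors of these enzymes are known to raise many genes outside their usual cell types. ERG is an ETS family transcription factor of blood stem cells and of endothelium.

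These genes were low in DMSO rather than silent. None of the 44 was without reads there, and their counts summed over the 12 DMSO libraries ran from 26 to 159, with a median of 113. Among all genes under 1 CPM in DMSO, 6868 had no read in any of the 12 DMSO libraries, and 5890 had none in any of the 24 libraries. The levels with the inhibitor were modest as well. The mean over the 3 BRD3308 groups ran from 2.26 to 8.66 CPM (median 3.33), against 0.148 to 0.91 CPM (median 0.641) over the 3 DMSO groups, and the ratio of these means ran from 2.82 to 22.4 (median 5.28). Since the limits fixed this contrast, it is a description with no test. In bulk RNA, more cells that express a gene and more RNA per cell cannot be told apart.

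Promoters were taken from RefSeq on GRCm38.p6 as windows from 250 bases before to 50 after a gene's start. They matched 35 of the 44 genes, with 41 windows. The median ratio of observed to expected CpG was 0.353 in these windows, 0.289 in 9516 windows of the other genes low in DMSO, and 0.771 in 10577 windows of the remaining protein-coding genes. Windows rich in CpG (GC of at least 50% and a ratio of at least 0.6) made up 24.4%, 22.5% and 68.7% of the 3 sets. In CpG content the 44 genes thus lay nearer to the other low genes than to the rest, as a description with no test.

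**Figure D1:**
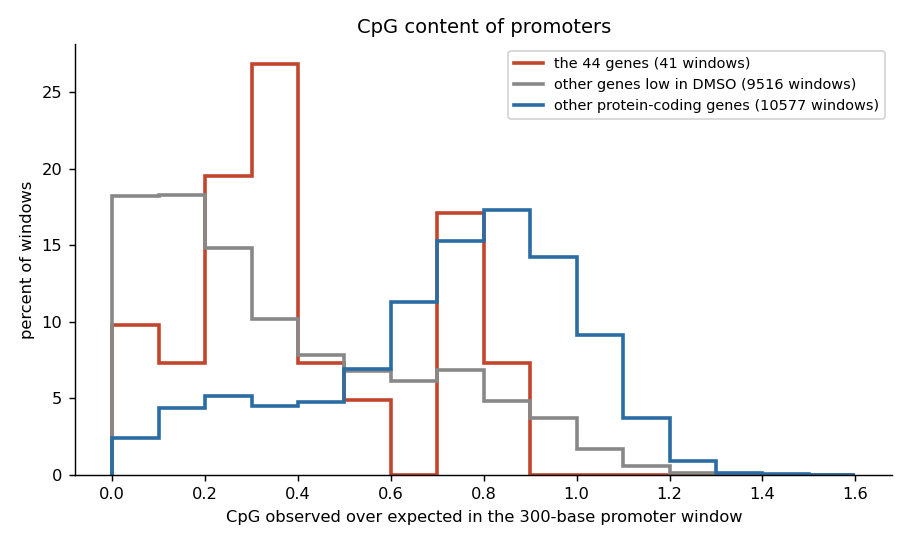
Share of promoter windows (percent, vertical axis) by the ratio of observed to expected CpG (horizontal axis, in steps of 0.1) for the 44 genes, the other genes low in DMSO and the remaining protein-coding genes. The medians were 0.353, 0.289 and 0.771, and most windows of the 44 genes lie on the left, with 10 between 0.7 and 0.9.

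The windows were searched on both strands for 8 motifs, and each triple of shares is that of the 41 windows of these genes, of the other genes low in DMSO and of all 32851 windows. GAGGAAG, a site of PU.1 and related ETS factors, was in 24.4%, 12.9% and 13.6%, TGANTCA, the AP-1 site, in 22.0%, 9.38% and 7.81%, and TTGCNNAA, a C/EBP site, in 19.5%, 11.8% and 10.8%. GGGCGG, the GC box, was in 46.3%, 30.5% and 35.7% and TATAAA in 4.88%, 18.5% and 13.6%. The ETS site CCGGAAG was in 4.88%, 3.7% and 8.86%, the interferon-stimulated response element (GAAA, any 2 bases, GAAA) in 7.32%, 3.81% and 3.44%, and the E-box CACGTG in 9.76%, 5.53% and 7.15%. GAGGAAG and CCGGAAG share the letters GGAAG, and matches to the interferon-stimulated response element can overlap each other. In the windows of the remaining protein-coding genes the GC box was in 63.3%, CCGGAAG in 19.3%, CACGTG in 10.3% and TATAAA in 6.47%. There GAGGAAG was in 13.7%, TTGCNNAA in 8.39%, TGANTCA in 4.79% and the interferon-stimulated response element in 3.05%. With 41 windows, the share for AP-1 is 9 windows, both windows of *Ifi203* among them.

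The promoters below are shown because their genes differed between constructs (*Slc11a1*, *Sdc1*, *Acsbg1*, *Mmp8*, *Dse*) or because the gene is a known target of interferon (*Isg15*). Capitals mark every match to the 8 motifs.
Slc11a1 (GRCm38.p6 chr1:74374953-74375252, plus strand): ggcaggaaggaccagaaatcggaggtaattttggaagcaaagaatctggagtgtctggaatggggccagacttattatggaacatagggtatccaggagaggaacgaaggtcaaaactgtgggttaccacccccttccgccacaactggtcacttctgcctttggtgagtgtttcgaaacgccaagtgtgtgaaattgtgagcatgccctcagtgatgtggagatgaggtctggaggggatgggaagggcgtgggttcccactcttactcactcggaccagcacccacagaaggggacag
Sdc1 (GRCm38.p6 chr12:8771146-8771445, plus strand): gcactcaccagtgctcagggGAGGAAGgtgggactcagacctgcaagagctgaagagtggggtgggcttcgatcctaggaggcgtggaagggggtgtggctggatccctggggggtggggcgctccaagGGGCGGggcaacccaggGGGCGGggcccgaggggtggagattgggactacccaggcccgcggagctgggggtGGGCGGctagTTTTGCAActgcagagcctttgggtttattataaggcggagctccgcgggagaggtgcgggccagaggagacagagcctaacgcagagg
Acsbg1 (GRCm38.p6 chr9:54661836-54662135, minus strand): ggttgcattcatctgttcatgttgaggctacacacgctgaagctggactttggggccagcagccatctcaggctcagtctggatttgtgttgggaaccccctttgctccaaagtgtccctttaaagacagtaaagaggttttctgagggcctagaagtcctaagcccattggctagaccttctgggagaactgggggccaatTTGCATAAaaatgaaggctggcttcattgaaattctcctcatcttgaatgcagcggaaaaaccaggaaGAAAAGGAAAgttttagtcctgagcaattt
Mmp8 (GRCm38.p6 chr9:7558179-7558478, plus strand): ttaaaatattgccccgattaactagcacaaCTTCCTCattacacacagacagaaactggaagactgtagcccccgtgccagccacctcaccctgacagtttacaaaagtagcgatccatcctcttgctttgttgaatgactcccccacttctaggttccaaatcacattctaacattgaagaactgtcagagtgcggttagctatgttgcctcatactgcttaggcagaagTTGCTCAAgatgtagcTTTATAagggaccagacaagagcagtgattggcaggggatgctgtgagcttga
Isg15 (GRCm38.p6 chr4:156200769-156201068, minus strand): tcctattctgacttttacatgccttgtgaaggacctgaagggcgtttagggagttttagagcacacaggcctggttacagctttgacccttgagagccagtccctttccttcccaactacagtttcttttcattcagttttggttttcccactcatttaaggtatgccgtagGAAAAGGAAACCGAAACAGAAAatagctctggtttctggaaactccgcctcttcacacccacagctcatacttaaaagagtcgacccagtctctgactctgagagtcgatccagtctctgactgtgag
Dse (GRCm38.p6 chr10:34207186-34207485, minus strand): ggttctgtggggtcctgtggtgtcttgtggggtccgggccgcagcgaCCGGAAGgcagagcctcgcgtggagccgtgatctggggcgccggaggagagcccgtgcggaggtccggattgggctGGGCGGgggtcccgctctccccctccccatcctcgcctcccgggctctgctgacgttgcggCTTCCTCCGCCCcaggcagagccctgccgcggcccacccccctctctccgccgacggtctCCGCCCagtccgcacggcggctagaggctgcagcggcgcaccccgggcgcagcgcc
The window of *Isg15* held the interferon-stimulated response element 3 times in an overlapping run, the first match at base -78 and the last at -66 from the start. *Sdc1* and *Dse* each had 3 GC boxes and a GAGGAAG, and *Mmp8* and *Acsbg1* each had a TTGCNNAA. *Slc11a1* matched none of the 8 motifs, which says only that these letters are not in this window.

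By what their products are known to do, 9 take part in microbial sensing and defence, 12 in leukocyte surface and signalling functions, 7 in matrix, lining cells and guidance, 9 in the nucleus, the cytoskeleton or cell division, and 7 are enzymes of lipids and amino acids, channels or receptors. These headings were made after the names were seen. Of 18 marker lists and 10 gene lists, 4 held a member, and 39 of the 44 genes were on none. *Itgax* was the only member among 10 dendritic cell markers under 1 CPM in DMSO, *Blnk* and *Sdc1* were the members among 10 B and plasma cell markers, *Acta2* was the only member among 10 fibroblast markers and *Mmp8* among 21 metalloproteinases. The lists of neurons (20 low genes), epithelium (19), germ cells (17), muscle (15), T cells (15) and macrophages (14) held none, nor did 37 low homeobox and developmental factors or 9 low genes known as raised by HDAC inhibitors in other cells. Of all genes low in DMSO only 0.377% were chosen, so lists of this size can be empty for that reason alone. Nothing about a cell type is read from an empty list or from single members. The 44 genes lay on 18 chromosomes, with *Dock6* and *Plppr2* 84398 bases apart on chromosome 9.

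**Figure D2:**
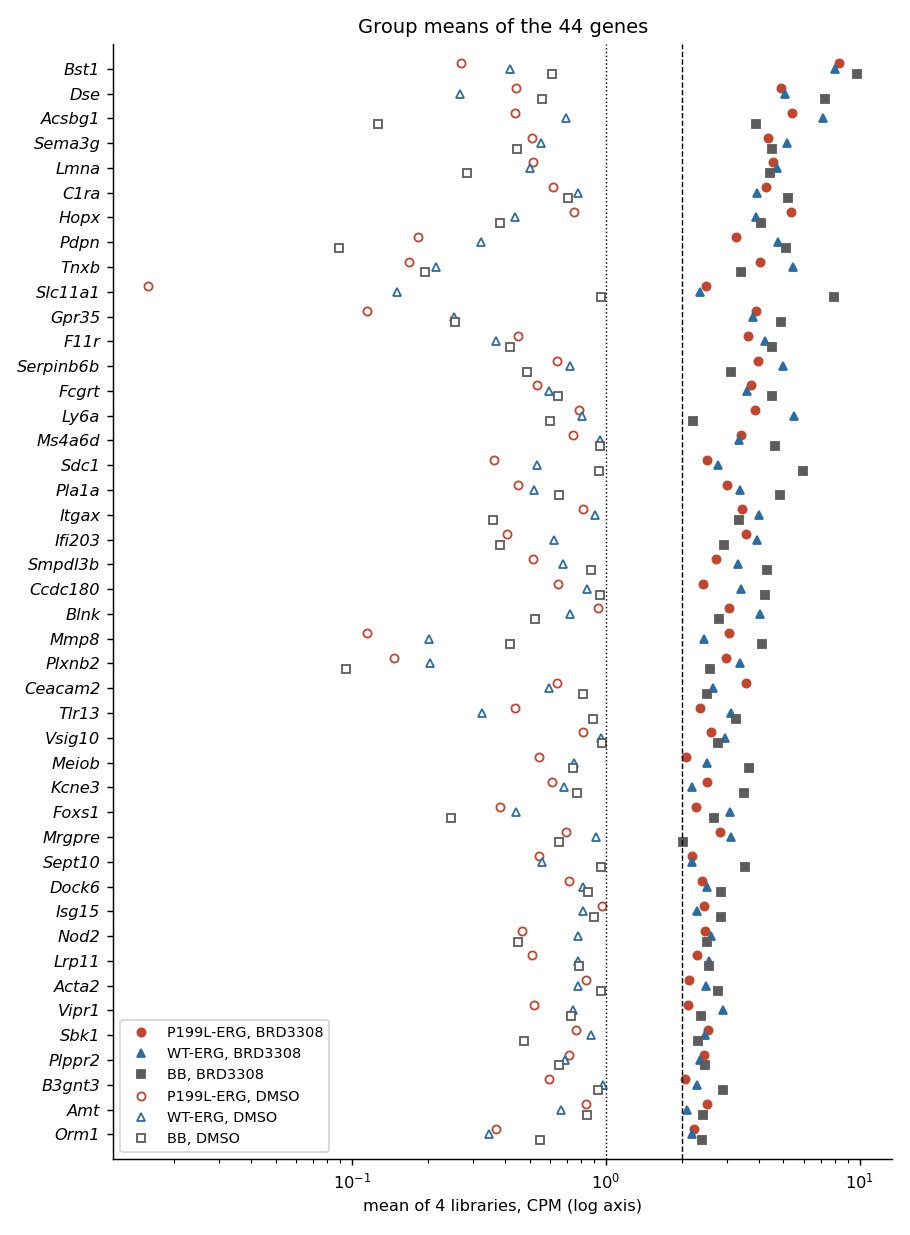
Mean CPM of each of the 44 genes in each group (4 libraries per mean, log axis), with filled symbols for BRD3308 and open symbols for DMSO and a symbol for each construct, and lines at 1 and 2 CPM, the limits of the choice. *Bst1* lies highest, with a mean of 8.66 CPM over the BRD3308 groups, and every filled symbol lies at 2 CPM or above, as the choice required.

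The 9 genes of microbial sensing and defence averaged 2.26 to 4.48 CPM with BRD3308 and 0.207 to 0.892 CPM with DMSO. *Nod2*, a sensor of bacterial peptidoglycan, was at 2.45 ± 0.670 CPM in P199L-ERG, 2.58 ± 0.0842 in WT-ERG and 2.49 ± 0.677 in BB cells with BRD3308, against 0.466 ± 0.141, 0.779 ± 0.187 and 0.449 ± 0.133 CPM in the same cells with DMSO (SD, n = 4 each). The constructs overlapped with the inhibitor. *Tlr13*, the mouse receptor for bacterial ribosomal RNA, was at 1.58 to 4.28 CPM with BRD3308 and at 0.160 to 1.41 CPM with DMSO. *Gpr35*, a receptor of gut and immune cells, was at 3.27 to 6.14 CPM with BRD3308 and at 0.0690 to 0.391 CPM with DMSO, a ratio of 20.3. *C1ra*, a protease of the classical complement pathway, was at 3.36 to 5.83 against 0.217 to 1.21 CPM, and *Orm1*, an acute-phase protein, at 1.61 to 3.14 against 0.145 to 0.781 CPM. Both proteins are best known from the liver and plasma. *Isg15*, a ubiquitin-like protein induced by interferon, had the smallest ratio of the 44 (2.82), with 1.93 to 3.17 against 0.390 to 1.52 CPM. *Ifi203*, of an interferon-inducible family, was at 2.37 to 4.51 against 0.156 to 0.799 CPM and lies across *Mndal* on the same strand, which had group means of 21.9 to 22.9 CPM with BRD3308 and 6.48 to 8.63 CPM with DMSO, so its counts are uncertain.

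The 12 leukocyte genes included the most abundant. *Bst1* (CD157, a surface enzyme of myeloid and stromal cells) had 8.64, 6.78, 8.68 and 9.02 CPM in BRD3308-treated P199L-ERG cells, 7.06, 7.99, 8.06 and 8.77 in WT-ERG cells and 8.75, 9.61, 7.45 and 13.1 in BB cells, and 0.160 to 0.780 CPM in the 12 DMSO libraries. The constructs overlapped with the inhibitor. *Bst1* (ENSMUSG00000029082, GRCm38 chromosome 5, 43818885 to 43843986, plus strand) overlaps *Fbxl5* on the other strand, which was at 53.1 to 55.8 CPM in the BRD3308 groups and 39.8 to 44.9 CPM in the DMSO groups. The strand setting of the counting is not given in the sources used here, so reads of the pair cannot be told apart. *Itgax* (CD11c, an integrin of dendritic cells and macrophages) was at 2.85 to 4.43 CPM with BRD3308 and at 0.256 to 1.12 CPM with DMSO. *Fcgrt*, the neonatal Fc receptor that recycles antibodies, was at 3.04 to 4.88 against 0.142 to 0.910 CPM, and *F11r*, the junctional adhesion molecule JAM-A, at 3.43 to 5.19 against 0.213 to 0.690 CPM. *Vsig10*, an immunoglobulin-like membrane protein, had the most reads in DMSO (0.553 to 1.25 CPM) beside 1.95 to 3.4 CPM with BRD3308. *Ceacam2*, an adhesion molecule, was at 1.98 to 4.06 against 0.277 to 1.09 CPM, with 213 to 263 CPM over the groups for its close relative *Ceacam1*, whose reads the counting could share. *Ceacam2* also overlaps the antisense gene *4732471J01Rik*, which was at 1.51 to 1.64 CPM in the BRD3308 groups and at 1.2 to 1.72 CPM in the DMSO groups.

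Summed levels of markers of mature blood cells stand beside these genes. The macrophage list (18 measured, 5 without a read, *C1qa*, *C1qb* and *C1qc* among them) summed to 204 to 215 CPM in P199L-ERG, 217 to 233 in WT-ERG and 241 to 257 in BB cells with BRD3308, against 78.0 to 92.5, 91.0 to 95.1 and 112 to 122 CPM in the same cells with DMSO. The dendritic cell list (12 measured) without *Itgax* summed to 32.9 to 34.8 CPM in P199L-ERG, 32.7 to 37.6 in WT-ERG and 26.5 to 31.2 in BB cells with BRD3308, against 27.9 to 29.5, 26.5 to 30 and 20.5 to 23.4 CPM in the same cells with DMSO, mostly from *Bst2*, with *Cd209a* at 0. The B and plasma cell list (14 measured) without *Blnk* and *Sdc1* summed to 126 to 137 CPM in P199L-ERG, 114 to 129 in WT-ERG and 168 to 187 in BB cells with BRD3308, against 69.7 to 80.0, 56.8 to 65.2 and 122 to 133 CPM in the same cells with DMSO. In each of these lists the BRD3308 libraries of a construct lay above its DMSO libraries. The T cell, natural killer cell and megakaryocyte lists did so too, mostly from *Cd28*, *Nkg7* and *Thbs1*, in this order. The mast cell, basophil and eosinophil list went the other way with ERG. It summed to 411 to 440 CPM in P199L-ERG and 460 to 479 in WT-ERG cells with BRD3308. With DMSO it summed to 494 to 538 and 572 to 617 CPM in the same cells. In BB cells it overlapped (447 to 478 and 435 to 454 CPM), and the erythroid list overlapped in every construct. Single genes weighed on these sums. *Cpa3* of the mast cell list fell in every construct, with group means of 24.6 to 65.8 CPM with BRD3308 and 84.7 to 222 CPM with DMSO. *Siglecf* of that list rose in every construct (142 to 146 and 59.3 to 80.9 CPM). *Tcf7* of the T cell list (2.44 to 2.99 and 4.51 to 4.71 CPM) and *Itga2b* of the megakaryocyte list (7.28 to 23.3 and 12.8 to 54.4 CPM) fell in every construct. Most of the B cell sum came from *Igll1*. *Cd79a* had group means of 11.5 to 16.6 CPM with BRD3308 and 2.3 to 3.14 CPM with DMSO, and *Ebf1* of 6.31 to 7.31 and 1.78 to 2.03 CPM, while *Rag1* was at 0 and *Pax5* at 0.0335 CPM or less in every group. The part of such cells in the results was not tested.

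The 7 matrix and guidance genes included the widest ratios. *Tnxb*, the matrix glycoprotein tenascin-X, was at 3.1 to 6.21 CPM with BRD3308 and at 0 to 0.426 CPM with DMSO, a ratio of 22.4. *Pdpn*, podoplanin of lymphatic endothelium and stromal cells, was at 2.66 to 6.28 against 0 to 0.435 CPM (22.2), and *Plxnb2*, a receptor for semaphorins, at 1.82 to 4.77 against 0 to 0.315 CPM (20.0). *Sema3g*, a secreted semaphorin of endothelium, had 3.76, 4.69, 3.98 and 4.91 CPM in BRD3308-treated P199L-ERG cells, 5.49, 4.77, 4.86 and 5.57 in WT-ERG cells and 4.12, 4.44, 4.75 and 4.78 in BB cells, against 0.319 to 0.851 CPM with DMSO. Each pair of constructs overlapped. *Dse*, an epimerase of dermatan sulfate synthesis, was at 4.05 to 8.56 against 0.0690 to 0.723 CPM, *B3gnt3*, a glycosyltransferase, at 1.84 to 3.57 against 0.441 to 1.34 CPM, and *Plppr2*, of the lipid phosphatase-related family, at 1.77 to 2.82 against 0.391 to 0.958 CPM. In the list of fibroblast markers *Col3a1*, *Dcn* and *Twist1* had no read in any library, and in that of endothelium *Emcn* and *Robo4* had none. The fibroblast list without *Acta2* nevertheless summed to 164 to 306 CPM with BRD3308 and 27.7 to 91.0 CPM with DMSO. With BRD3308 most came from *Thy1* (group means of 128 to 242 CPM), and with DMSO from *Thy1* (8.91 to 42.0), *Fbln1* (5.93 to 41.3) and *Postn* (1.1 to 13.2). The endothelial list summed to 413 to 528 and 133 to 209 CPM, mostly from *Pecam1*.

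Among the 9 genes of the nucleus and cytoskeleton, *Lmna*, which encodes the A-type lamins of the nuclear envelope, had 4.95, 4.69, 3.98 and 4.51 CPM in P199L-ERG, 4.96, 3.78, 5.53 and 4.65 in WT-ERG and 4.12, 4.52, 4.29 and 4.86 in BB cells with BRD3308, against 0.234 to 0.692 CPM with DMSO. The 3 constructs overlapped. *Hopx*, a small homeodomain protein, was at 2.99 to 5.92 against 0.156 to 0.845 CPM, and *Foxs1*, a forkhead factor, at 2.09 to 3.43 against 0.138 to 0.799 CPM. *Acta2*, the smooth muscle actin, was at 1.98 to 2.93 against 0.426 to 1.37 CPM, with 2500 to 2990 CPM over the groups for the related *Actb*. *Dock6*, an exchange factor for small GTPases, was at 2.15 to 3.28 against 0.390 to 1.01 CPM, *Sbk1*, a protein kinase, at 1.88 to 2.97 against 0.391 to 1.28 CPM, and *Meiob*, which acts in meiotic recombination, at 1.82 to 4.09 against 0.289 to 1.17 CPM. *Meiob* was not on the germ cell list, which held no member.

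The 7 enzymes, channels and receptors made up the rest. *Acsbg1*, an acyl-CoA synthetase known from brain and gonads, was at 3.11 to 7.86 CPM with BRD3308 and at 0 to 0.879 CPM with DMSO. *Pla1a*, a phospholipase, was at 2.52 to 5.81 against 0.276 to 1.05 CPM, and *Vipr1*, a receptor for vasoactive intestinal peptide, at 1.84 to 3.72 against 0.252 to 1.21 CPM. *Kcne3*, a potassium channel subunit, was at 1.55 to 4.21 against 0.260 to 1.04 CPM, *Mrgpre*, of a receptor family of sensory neurons, at 1.72 to 3.53 against 0.350 to 1.2 CPM, and *Lrp11*, of the LDL receptor family, at 1.91 to 3.14 against 0.414 to 1.28 CPM. *Amt*, of the mitochondrial glycine cleavage system, was at 1.49 to 2.81 against 0.553 to 1.04 CPM. It starts 355 bases after *Nicn1* on the same strand, whose group means were 12.8 to 14.9 CPM with BRD3308 and 3.46 to 3.79 CPM with DMSO. Per length of exon (RPKM, CPM per kilobase), the level with BRD3308 was highest for *Isg15* (3.33 RPKM), *Ly6a* (3.20), *Hopx* and *Orm1* (2.92 each) and lowest for *Dock6* (0.293 RPKM).

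The genes nearest to the limits show how the choice fell. Just inside 2 CPM, the lowest BRD3308 group mean was 2.01 CPM for *Mrgpre*, 2.05 for *B3gnt3*, 2.06 for *Meiob* and 2.08 for *Amt*, and just outside it were *Ckb* and *Arl4c* (1.99 CPM each), *Thsd1* (1.90) and *Ly6g* (1.88). Just inside 1 CPM, the highest DMSO group mean was 0.976 CPM for *B3gnt3*, 0.963 for *Isg15*, 0.961 for *Vsig10* and 0.959 for *Slc11a1*, and just outside it were *Plxdc1* (1.0), *4932438H23Rik* and *Colq* (1.01 each). A further 58 genes low in DMSO reached 2 CPM in some but not all constructs, 30 of them in BB cells alone, 13 in WT-ERG cells alone and none in P199L-ERG cells alone. With every single library held to the limits, 13 genes were left: *Fcgrt*, *Sema3g*, *Gpr35*, *Lmna*, *Pdpn*, *Bst1*, *Acsbg1*, *Tnxb*, *F11r*, *Dse*, *Ifi203*, *Hopx* and *Foxs1*.

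The constructs were then compared under the inhibitor. The choice had not used this contrast, but it bounded the levels, since a gene under 2 CPM in any construct could not be taken. The words higher and lower are used below for genes with an adjusted p under 0.05 in edgeR's quasi-likelihood test over all 12963 genes tested. Both ERG constructs were set against the same BB libraries, so their values are not independent. Of the 44 genes, P199L-ERG cells had the highest mean with BRD3308 for 4, WT-ERG cells for 15 and BB cells for 25. The summed level of all 44 was 134 to 147 CPM in P199L-ERG, 147 to 158 CPM in WT-ERG and 153 to 185 CPM in BB cells with BRD3308, against 22.6 to 24.1, 24.6 to 28.1 and 25.4 to 28 CPM in the same cells with DMSO.

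In BRD3308-treated P199L-ERG cells, 2 of the 44 genes were higher and 10 lower than in BB cells. These are 4.55% and 22.7% of the 44, beside 8.12% higher and 8.81% lower among all genes tested, and the median log2 fold change was -0.24 beside 0. In WT-ERG cells, 6 were higher and 9 lower than in BB cells, 13.6% and 20.5% of the 44 beside 10.4% and 10.7% of all genes, with a median of -0.11 beside 0. Same-numbered libraries deviated together, and with the replicate as a block 5 genes were higher and 15 lower in P199L-ERG cells. Those gained as higher were *Mrgpre* (0.47, adjusted p = 0.042), *Ceacam2* (0.49, adjusted p = 0.0394) and *Hopx* (0.39, adjusted p = 0.0204). The block also added as lower in P199L-ERG cells *Mmp8* (-0.45, adjusted p = 0.0241), *Gpr35* (-0.34, adjusted p = 0.0352), *B3gnt3* (-0.50, adjusted p = 0.0467), *Tlr13* (-0.50, adjusted p = 0.0416) and *Kcne3* (-0.49, adjusted p = 0.0381). In WT-ERG cells it added *Ifi203* as higher (0.42, adjusted p = 0.0419) and *Gpr35* (-0.37, adjusted p = 0.016), *Smpdl3b* (-0.37, adjusted p = 0.0452) and *C1ra* (-0.42, adjusted p = 0.0299) as lower.

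**Figure D3:**
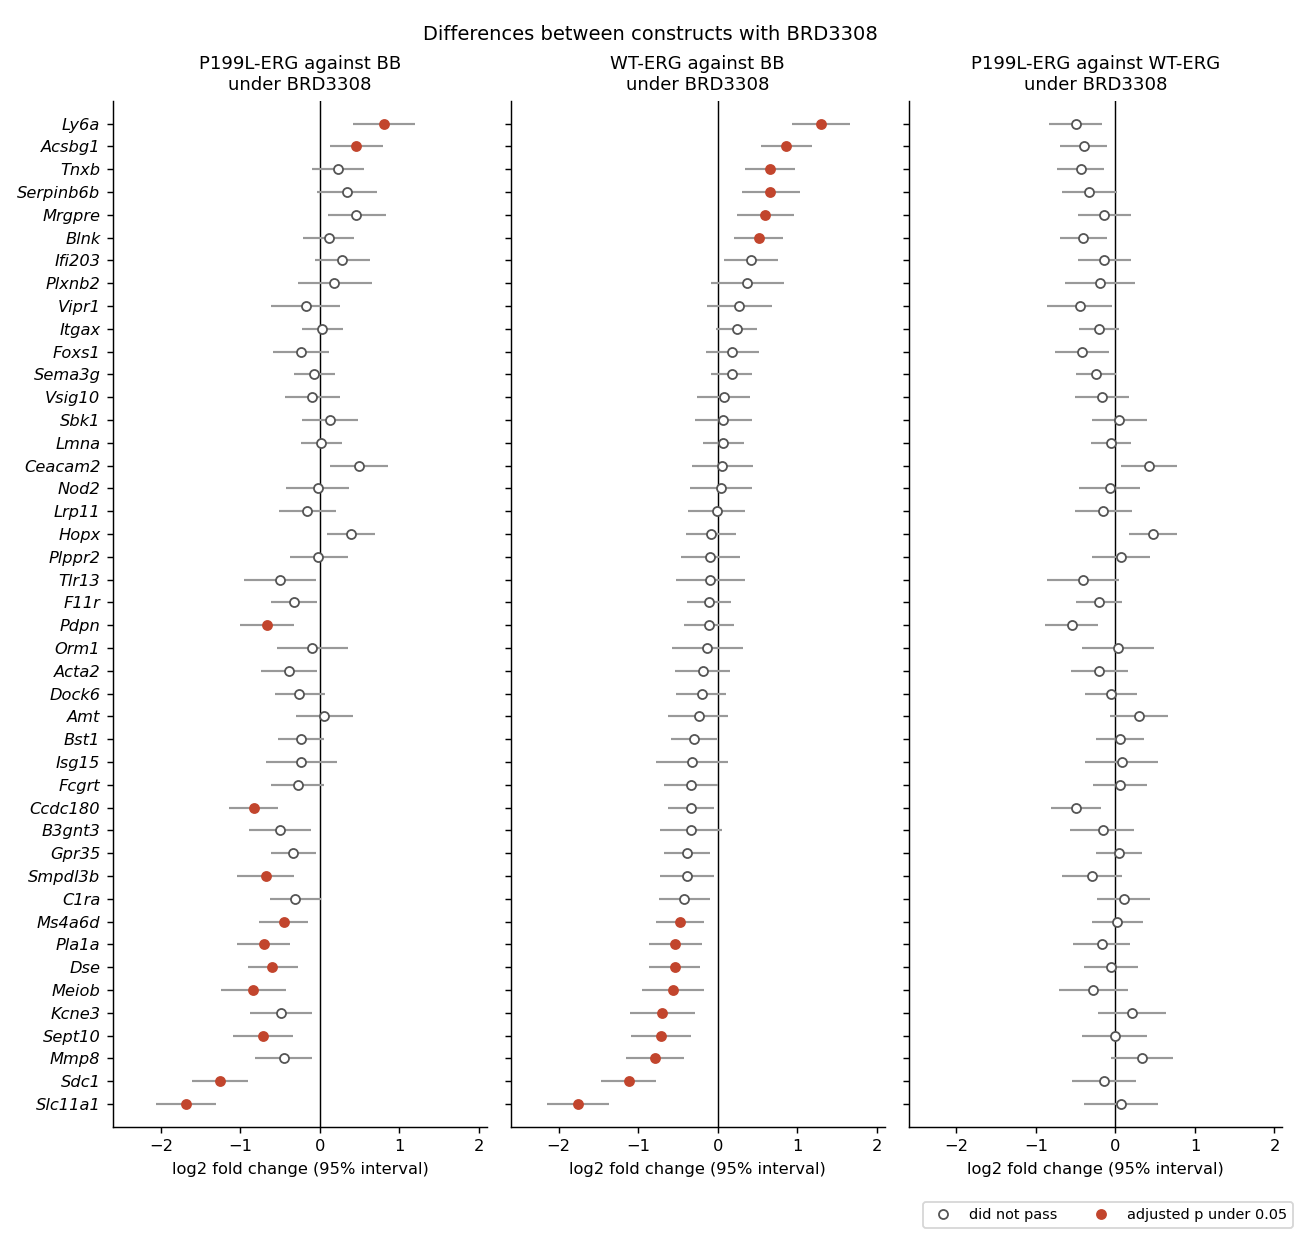
Log2 fold change of each of the 44 genes between constructs with BRD3308 (points, with 95% confidence intervals as lines), for P199L-ERG against BB, WT-ERG against BB and P199L-ERG against WT-ERG, 4 libraries per group, with filled points for an adjusted p under 0.05. In the 3 comparisons 12, 15 and 0 genes passed, with *Slc11a1* lowest and *Ly6a* highest against BB.

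*Slc11a1* (ENSMUSG00000026177, GRCm38 chromosome 1, 74375195 to 74386062, plus strand) encodes NRAMP1, a metal transporter of the macrophage phagosome known for resistance to intracellular microbes. With BRD3308 it had 2.44, 2.03, 3.39 and 2.02 CPM in P199L-ERG cells and 1.37, 2.66, 2.87 and 2.52 CPM in WT-ERG cells, against 6.91, 9.91, 6.0 and 8.78 CPM in BB cells. All libraries of both ERG constructs lay below all BB libraries. It was lower than in BB cells with P199L-ERG (-1.68, SE 0.18, adjusted p = 9.04e-08) and with WT-ERG (-1.75, SE 0.19, adjusted p = 3.26e-08), where the first value is the log2 fold change. In DMSO it had 1 count in the 4 P199L-ERG libraries and 9 in the WT-ERG libraries, against 54 in the BB libraries. The ratio to BB was 0.0174 for P199L-ERG (95% exact counting interval 0.000433 to 0.101) and 0.16 for WT-ERG (0.0694 to 0.327), intervals that cover counting error only, and both groups were lower than BB (adjusted p = 5.28e-06 and 0.000235).

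*Sdc1* (ENSMUSG00000020592, GRCm38 chromosome 12, 8771323 to 8793715, plus strand) encodes syndecan-1 (CD138), a proteoglycan of plasma cells and epithelium. With BRD3308 it had 2.24, 2.98, 1.89 and 2.89 CPM in P199L-ERG cells and 3.07, 2.6, 3.07 and 2.29 CPM in WT-ERG cells, against 5.9, 6.85, 5.01 and 6.07 CPM in BB cells. The ERG libraries again lay below all BB libraries, and *Sdc1* was lower with P199L-ERG (-1.26, SE 0.17, adjusted p = 3.76e-06) and with WT-ERG (-1.12, SE 0.17, adjusted p = 1.15e-05). *Mmp8*, the collagenase of neutrophil granules (ENSMUSG00000005800, GRCm38 chromosome 9, 7558456 to 7568485, plus strand), had 4.16, 2.92, 2.61 and 2.49 CPM in P199L-ERG cells and 2.87, 1.92, 2.0 and 2.98 CPM in WT-ERG cells, against 4.82, 3.71, 3.56 and 4.43 CPM in BB cells. Only the WT-ERG libraries were all below BB. *Mmp8* was lower with WT-ERG (-0.79, SE 0.18, adjusted p = 0.0017), and for P199L-ERG the value (-0.45, SE 0.17, adjusted p = 0.0693) passed with the replicate block (adjusted p = 0.0241).

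*Dse*, *Meiob*, *Sept10*, *Pla1a* and *Ms4a6d* were lower in both comparisons with BB as well. *Dse* had 6.0, 4.31, 4.05 and 5.11 CPM in P199L-ERG and 5.55, 4.27, 5.46 and 5.04 CPM in WT-ERG cells, against 8.56, 7.43, 6.53 and 6.64 CPM in BB cells (-0.60, SE 0.15, adjusted p = 0.0063, and -0.54, SE 0.15, adjusted p = 0.0112). *Meiob* had 1.85, 2.54, 2.02 and 1.82 CPM in P199L-ERG and 2.42, 2.85, 2.07 and 2.67 CPM in WT-ERG cells, against 2.98, 3.57, 4.09 and 4.0 CPM in BB cells (-0.84, SE 0.20, adjusted p = 0.00291, and -0.56, SE 0.19, adjusted p = 0.0347). For both genes the ERG groups did not overlap with BB. On the log2 scale the values for P199L-ERG and WT-ERG were -0.72 and -0.71 for *Sept10*, a septin of the cytoskeleton, -0.70 and -0.53 for *Pla1a*, and -0.45 and -0.47 for *Ms4a6d*, a membrane protein of macrophages. For *Sept10* and *Pla1a* the P199L-ERG libraries lay below BB and the WT-ERG libraries overlapped with it, and for *Ms4a6d* both overlapped. Its relatives *Ms4a6b* and *Ms4a6c* had group means of 2.84 to 13.7 CPM.

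The other lower genes passed against BB with a single construct. In P199L-ERG cells *Ccdc180*, a coiled-coil protein, had 2.57, 2.54, 2.09 and 2.42 CPM, against 4.75, 3.35, 4.22 and 4.64 CPM in BB cells (-0.83, SE 0.15, adjusted p = 0.000162). *Pdpn* had 3.5, 2.66, 2.94 and 3.9 CPM, against 3.87, 5.1, 5.21 and 6.28 CPM (-0.66, SE 0.16, adjusted p = 0.00409), and *Smpdl3b*, a membrane enzyme known to dampen Toll-like receptor signalling, had 4.09, 1.77, 2.68 and 2.29 CPM, against 4.82, 3.79, 3.69 and 4.86 CPM (-0.68, SE 0.18, adjusted p = 0.00638). For *Pdpn* and *Smpdl3b* a single P199L-ERG library reached into the BB range. In WT-ERG cells *Kcne3* had 2.68, 1.55, 1.93 and 2.59 CPM, against 2.54, 3.79, 3.5 and 4.21 CPM in BB cells (-0.70, SE 0.20, adjusted p = 0.011), with overlap. Passing with a single construct does not show that the constructs differ.

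*Ly6a* had the largest positive difference from BB. It encodes Sca-1, the surface antigen of mouse blood stem cells (ENSMUSG00000075602, GRCm38 chromosome 15, 74994877 to 74998031, minus strand). With BRD3308 it had 5.41, 2.85, 3.59 and 3.63 CPM in P199L-ERG cells and 4.64, 5.51, 6.13 and 5.65 CPM in WT-ERG cells, against 2.41, 2.4, 1.58 and 2.43 CPM in BB cells. All libraries of both ERG constructs lay above the BB libraries, and it was higher with P199L-ERG (0.80, SE 0.19, adjusted p = 0.0032) and with WT-ERG (1.30, SE 0.18, adjusted p = 2.69e-06). In DMSO the groups overlapped, with 0.621 to 1.04 CPM in P199L-ERG, 0.435 to 1.04 in WT-ERG and 0.506 to 0.840 in BB cells. The related *Ly6e* (704 to 1010 CPM over the groups) and *Ly6c2* (402 to 1780 CPM) had far more reads, some of which the counting could have given to *Ly6a*.

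*Acsbg1* (ENSMUSG00000032281, GRCm38 chromosome 9, 54604877 to 54661870, minus strand) had 5.01, 4.63, 5.35 and 6.59 CPM in P199L-ERG cells and 6.14, 7.0, 7.86 and 7.63 CPM in WT-ERG cells with BRD3308, against 3.11, 4.66, 3.36 and 4.5 CPM in BB cells. WT-ERG lay above BB in every library, whereas P199L-ERG overlapped with it slightly. It was higher with WT-ERG (0.86, SE 0.16, adjusted p = 0.000109) and, close to the threshold, with P199L-ERG (0.46, SE 0.16, adjusted p = 0.0488). The call for P199L-ERG was lost under 16 of 32 alternatives, among them DESeq2, limma-voom and 13 left-out libraries, with adjusted p up to 0.192. In DMSO it had 0.390, 0.252, 0.690 and 0.415 CPM in P199L-ERG cells and 0.851, 0.553, 0.497 and 0.879 CPM in WT-ERG cells, against 0, 0.0639, 0.210 and 0.234 CPM in BB cells, higher with P199L-ERG (1.75, SE 0.58, adjusted p = 0.026) and with WT-ERG (2.37, SE 0.53, adjusted p = 0.000909). On the DMSO libraries alone *Acsbg1* would not have passed the filter on low counts, so these DMSO values are a description of a chosen gene.

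With WT-ERG, a further 4 genes exceeded BB under the inhibitor. *Tnxb* had 6.21, 4.83, 4.66 and 6.18 CPM in WT-ERG cells, against 3.49, 3.57, 3.1 and 3.5 CPM in BB cells (0.66, SE 0.15, adjusted p = 0.00164). *Serpinb6b*, an intracellular protease inhibitor, had 4.7, 5.26, 5.2 and 4.73 CPM, against 3.17, 3.13, 2.31 and 3.86 CPM (0.66, SE 0.18, adjusted p = 0.00705). *Blnk*, an adaptor of the B cell receptor, had 4.12, 4.27, 3.47 and 4.35 CPM, against 2.98, 2.99, 2.64 and 2.57 CPM (0.52, SE 0.15, adjusted p = 0.0113). In each the WT-ERG libraries lay above the BB libraries, and so did those of *Mrgpre* (0.60, SE 0.17, adjusted p = 0.0127).

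**Figure D4:**
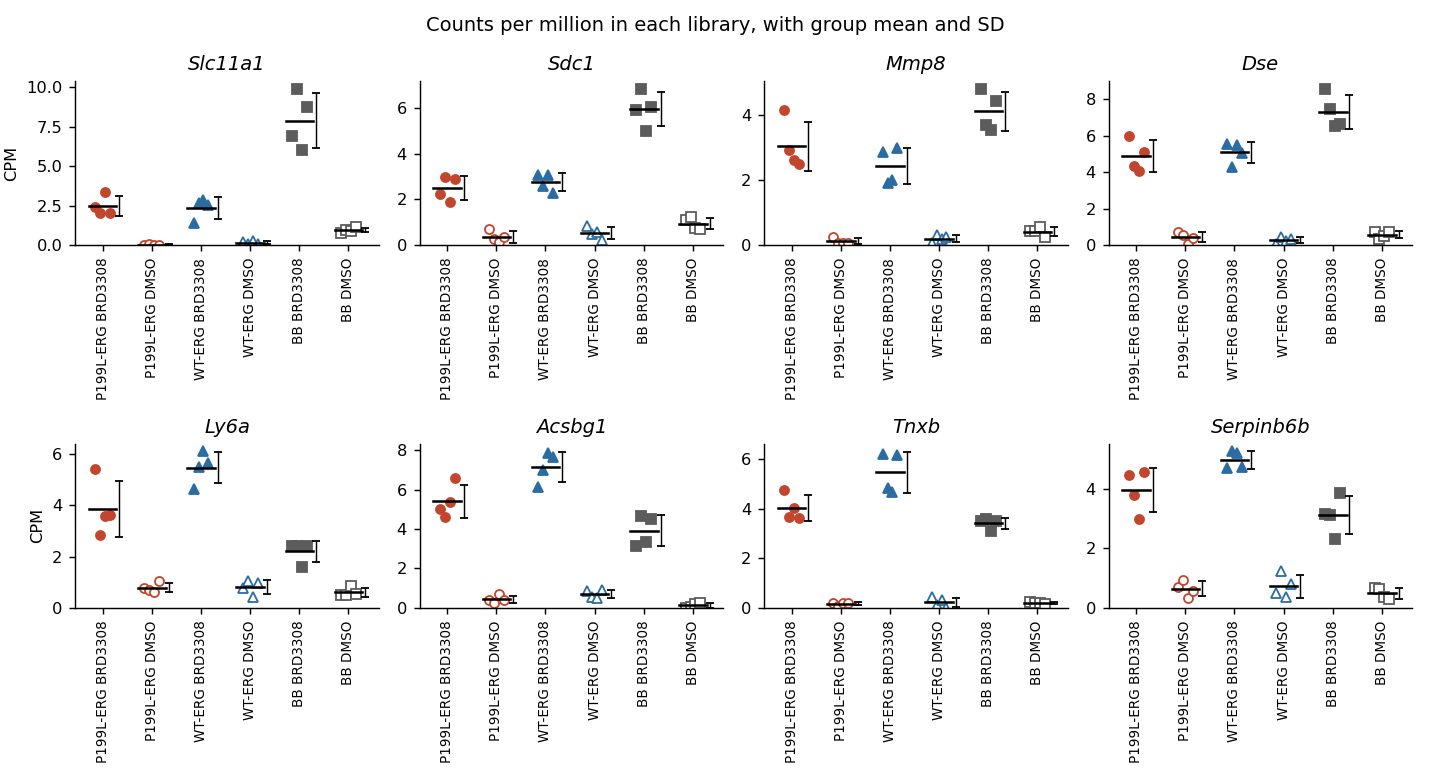
CPM in each library (points) of 8 genes that differed between constructs, with filled symbols for BRD3308 and open symbols for DMSO, group means as horizontal lines and SD as error bars beside them (n = 4). The highest values are 9.91 CPM for *Slc11a1* in BRD3308-treated BB cells and 7.86 CPM for *Acsbg1* in BRD3308-treated WT-ERG cells.

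Some calls between a construct and BB rested on single BRD3308 libraries. Without replicate 2 of WT-ERG, *Dse* (adjusted p = 0.0569) and *Kcne3* (adjusted p = 0.0646) no longer passed. With WT-ERG, *Mrgpre* was lost without WT-ERG replicate 1 or BB replicate 3 (adjusted p up to 0.0555), *Pla1a* without WT-ERG replicate 2 or 4 or BB replicate 3 (up to 0.0786), *Meiob* without WT-ERG replicate 1 or 3 or BB replicate 2, 3 or 4 (up to 0.102), and *Ms4a6d* without WT-ERG replicate 2 or 4 or BB replicate 2 or 4 (up to 0.0933). With P199L-ERG, *Ms4a6d* was lost without replicate 1, 2 or 4 of P199L-ERG or of BB, with DESeq2 and with no filter on low counts (up to 0.116).

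Between P199L-ERG and WT-ERG cells under BRD3308, none of the 44 genes passed without the replicate block, beside 1.31% higher and 2.09% lower in P199L-ERG cells among all genes tested, and 5 passed with it. At an unadjusted p under 0.05 in edgeR there were 10 of the 44 (22.7%), beside 12.5% of all genes. The libraries of these constructs did not overlap for 4 genes (9.09%, beside 10.5% of all genes tested). These were *Hopx*, with its P199L-ERG libraries above, and *Ccdc180* (2.09 to 2.57 CPM in P199L-ERG and 2.68 to 4.15 in WT-ERG cells), *Serpinb6b* (3.0 to 4.58 and 4.7 to 5.26) and *Foxs1* (2.09 to 2.61 and 2.91 to 3.43), with their P199L-ERG libraries below. The nearest to passing was *Pdpn*, with 3.5, 2.66, 2.94 and 3.9 CPM in P199L-ERG cells and 5.42, 5.26, 3.66 and 4.73 CPM in WT-ERG cells (-0.55, 95% confidence interval -0.89 to -0.22, adjusted p = 0.0583). *Hopx* had 4.81, 5.39, 5.29 and 5.92 CPM in P199L-ERG cells and 3.4, 3.16, 4.73 and 4.27 CPM in WT-ERG cells (0.47, 95% confidence interval 0.17 to 0.77, adjusted p = 0.0841). The value was -0.50, 95% confidence interval -0.83 to -0.17, adjusted p = 0.0981 for *Ly6a* and 0.07, 95% confidence interval -0.39 to 0.54, adjusted p = 0.962 for *Slc11a1*. With the replicate as a block, *Hopx* was higher (0.47, adjusted p = 0.0198) and 4 genes were lower in P199L-ERG cells, namely *Pdpn* (-0.56, adjusted p = 0.0187), *Acsbg1* (-0.41, adjusted p = 0.0404), *Ly6a* (-0.50, adjusted p = 0.0457) and *Tnxb* (-0.43, adjusted p = 0.0458).

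The size of the response to BRD3308 was also compared between constructs, as a difference of log2 fold changes. The choice of the genes used the means on both sides of this difference in every construct, and so bounded it. With few reads in DMSO, the test also has little power for these genes. Its counts and shares describe the chosen genes, and nothing is read from them against all genes. No gene of the 44 passed for P199L-ERG against BB, WT-ERG against BB or P199L-ERG against WT-ERG, beside 1.05%, 1.73% and 0.0463% of all genes. With an unadjusted p under 0.05 in edgeR there were 7, 6 and 2 of the 44 (15.9%, 13.6% and 4.55%), beside 12.8%, 10.4% and 5.89% of all genes. The nearest was *Slc11a1* for P199L-ERG against BB (3.58, SE 0.92, adjusted p = 0.0514). It passed with DESeq2 (adjusted p = 0.0234), with limma-voom (adjusted p = 0.0143), without a filter on low counts (adjusted p = 0.00161), and without BRD3308 replicate 2 of BB (adjusted p = 0.0377) or replicate 1 of WT-ERG (adjusted p = 0.0287). With 1 count in the DMSO-treated P199L-ERG cells the fitted value depends on the prior count, and the ratio of BRD3308 to DMSO counts in these cells was 149, with a 95% exact counting interval of 26.3 to 5910. For *Itgax* the difference from BB was -1.16, SE 0.31, adjusted p = 0.122 with P199L-ERG and -1.08, SE 0.30, adjusted p = 0.147 with WT-ERG.

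In DMSO, where all 44 group means were under 1 CPM, 7 genes differed between P199L-ERG and BB cells (15.9% of the 44, beside 28.2% of all genes) and 6 between WT-ERG and BB cells (13.6%, beside 29.7%). Between P199L-ERG and WT-ERG cells none did, beside 4.67% of all genes, with 3 of the 44 (6.82%) at an unadjusted p under 0.05 in edgeR, beside 16.1% of all genes. This comparison was added after the data had been seen. The choice of the genes bounded their DMSO levels, and 17 of them would not have passed the filter on low counts on DMSO libraries alone, so the counts and shares in DMSO describe the chosen genes and nothing is read from them against all genes. *Acsbg1*, *Mmp8*, *Pdpn* and *Hopx* are among these 17 and were tested in DMSO only through their BRD3308 libraries. Their DMSO values against BB are therefore descriptions, and nothing is read from their p-values. *Itgax* had 0.845, 1.01, 0.690 and 0.692 CPM in P199L-ERG cells and 0.780, 0.921, 0.808 and 1.12 CPM in WT-ERG cells, against 0.289, 0.256, 0.350 and 0.547 CPM in BB cells, without overlap, and was higher with P199L-ERG (1.19, SE 0.28, adjusted p = 0.00583) and with WT-ERG (1.32, SE 0.28, adjusted p = 0.00128). With BRD3308 its values against BB were 0.03 and 0.24 and did not pass. In P199L-ERG cells *Sdc1* (-1.35, SE 0.37, adjusted p = 0.00729) and *Mmp8* (-1.79, SE 0.56, adjusted p = 0.0178) were lower than in BB cells, and *Blnk* (0.81, SE 0.28, adjusted p = 0.0392) and *Hopx* (0.94, SE 0.36, adjusted p = 0.0496) higher. In WT-ERG cells *Tlr13* (-1.34, SE 0.44, adjusted p = 0.0216) was lower, and *Pdpn* (1.77, SE 0.64, adjusted p = 0.0375) and *Sbk1* (0.87, SE 0.30, adjusted p = 0.0315) higher.

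These DMSO calls rest on few reads. Under the 31 alternatives *Hopx* was lost 23 times (adjusted p up to 0.158), *Blnk* 10 times (up to 0.18) and *Sbk1* 8 times (up to 0.179). Among single DMSO libraries, *Pdpn* was lost without WT-ERG replicate 3 or 4 or BB replicate 1 or 3 (up to 0.116), *Tlr13* without WT-ERG replicate 1 or 4 or BB replicate 4 (up to 0.108), *Acsbg1* with P199L-ERG without P199L-ERG replicate 3 or BB replicate 1 or 2 (up to 0.0981), and *Mmp8* without P199L-ERG replicate 2 or BB replicate 3 (up to 0.0579).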

How the data were processed

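RNA of 24 ER-Hoxb8 libraries was measured. The authors deposited raw counts per Ensembl gene. Reads under 30 bp had been discarded and the rest mapped to GRCm38 with STAR. HTSeq, cutadapt and DESeq2 are further tools listed by the submitters' processing notes. For versions, strand setting and annotation, nothing was given in the sources used here. Gene types and coordinates came from GENCODE M21, which matched 53706 of 53801 genes, and 0 per-sample columns were left out.

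CPM was computed from library totals. Constructs were compared with edgeR 4.0.16 (R 4.3.3, TMM factors, filterByExpr, quasi-likelihood test, all 24 libraries, 6 group means), with Benjamini-Hochberg adjustment over 12963 genes and a threshold of 0.05. The test was checked on simulated counts with 200 changed genes. Alternatives used RLE factors, library size alone, no filter, DESeq2 1.42.0, limma-voom (limma 3.58.1), a fold minimum, the BRD3308 libraries alone, a replicate block and each library left out.

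Genes were named by level (the 12 highest with BRD3308), by difference between constructs without overlap of libraries (up to 6 in each direction), by nearness to the limits (4 on each side, of which 1 is not reported here) and by place on a list, and others by role after their names were seen. The 44 genes and all lists were chosen with earlier results of these data known. Replicate numbers were taken to pair the BRD3308 libraries, because all 12 same-numbered pairs deviated together from their group means (r 0.111 to 0.597, 10 of them closest to their own number). Over all 60 same-numbered pairs r was 0.0472 to 0.601, and 52 were over 0.1. The replicate block was fitted to all 24 libraries, so it also blocked the DMSO libraries by these numbers.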

Additional observations from a re-analysis of the deposited data

Results flagged for a closer look

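In 12 of 264 groups of 4 libraries (4.55%, where chance gives about 5%), a single library stood far from the other 3. Values are CPM, with the range of the other 3 libraries after them.

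Among BRD3308-treated cells, *Pla1a* was high in P199L-ERG replicate 4 (3.63, others 2.74 to 2.85), *Bst1* was low in P199L-ERG replicate 2 (6.78, others 8.64 to 9.02), *Fcgrt* was low in BB replicate 3 (3.63, others 4.71 to 4.88) and *Ly6a* was low in BB replicate 3 (1.58, others 2.40 to 2.43).

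Among DMSO-treated P199L-ERG cells, replicate 1 was high for *Mmp8* (0.26, others 0.063 to 0.0692) and *B3gnt3* (0.975, others 0.441 to 0.484). Replicate 2 was low for *Tnxb* (0.063, others 0.195 to 0.208) and held the only read of *Slc11a1* (0.063, others 0). In DMSO-treated WT-ERG cells, *Lrp11* was high in replicate 1 (1.28, others 0.56 to 0.639) and *Orm1* in replicate 4 (0.48, others 0.284 to 0.311). In DMSO-treated BB cells, replicate 3 was high for *Pla1a* (1.05, others 0.506 to 0.547) and *Ly6a* (0.84, others 0.506 to 0.547). Several of these values rest on fewer than 10 reads.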

How the results depend on the processing

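Of 40 differences between constructs that passed at single genes, 0 turned direction under any alternative, 25 kept the call under every alternative but the fold minimum and 15 lost it under some. The number of genes chosen was 13 with every library held to the limits, 7 (*Mmp8*, *Gpr35*, *Pdpn*, *Tnxb*, *Plxnb2*, *F11r*, *Foxs1*) with under 0.5 CPM in DMSO, 4 (*Sema3g*, *Lmna*, *Bst1*, *Dse*) with at least 4 CPM with BRD3308, and 42 to 45 with a library left out.

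For P199L-ERG against BB under BRD3308, the count of higher genes was 1 with RLE factors, 1 with DESeq2, 1 with limma-voom and 0 with an absolute log2 fold change over 1, where 2 were lower. With that minimum, WT-ERG against BB gave 1 higher and 2 lower. The count of different responses between P199L-ERG and BB was 1 with no filter, 1 with DESeq2 and 1 with limma-voom. For P199L-ERG against WT-ERG, 1 gene was lower with no filter and 2 without replicate 4 of both DMSO-treated ERG groups, an alternative chosen after seeing the data. With the replicate block, 5 genes were higher and 15 lower in P199L-ERG than in BB cells, 1 response differed between them (*Slc11a1*, 3.57, adjusted p = 0.0239 in edgeR), and 1 gene was higher and 4 lower in P199L-ERG than in WT-ERG cells. In DMSO the block added *Tlr13* (log2 fold change -0.99, adjusted p = 0.0304 in edgeR), lower with P199L-ERG than with BB. For the DMSO libraries the same numbers do not establish a pairing, since some pairs had r under 0.1. Beside these and the genes named in the report, the block changed no other call.

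With each library left out, P199L-ERG against BB gave 1 to 4 higher and 9 to 12 lower, WT-ERG against BB 5 to 7 higher and 6 to 12 lower, and P199L-ERG against WT-ERG 0 to 1 higher and 0 to 1 lower. Responses gave 0 to 1 for P199L-ERG against BB. In DMSO the counts were 5 to 8, 4 to 6 and 0 for the 3 comparisons in the same order. At these counts, the 44 genes had 26 to 159 reads in all DMSO libraries together, which limits every comparison of DMSO levels or responses.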
